A study of Homo sapiens with 16 samples.

Results

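The genes described here are 10 components of the Notch pathway: the receptors NOTCH1, NOTCH2 and NOTCH3, the ligands JAG1, JAG2 and DLL1, the glycosyltransferase LFNG, and the transcription factors HES1, HEY1 and HEYL, which are targets of the pathway. They were chosen by name, with earlier results of these data known, so counts of them that passed are descriptive. Each symbol matched 1 of the 57820 gene IDs of the count tables, and all 10 passed the filter on low counts in both serum conditions, so none is left out below.

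Bulk RNA-Seq was performed on MDA-MB-231 and MDA-MB-436, 2 human cell lines of mesenchymal triple-negative breast cancer (TNBC). MDA-MB-436 carries mutated BRCA1. Cells of both lines, controls included, were stably transfected with 7TGP, a construct with puromycin resistance and with eGFP driven by Tcf/Lef binding sites, so that eGFP reports canonical Wnt activity. Repeated cell sorting on eGFP gave a 7TGP-POS and a 7TGP-NEG subline of each line. The sublines are sorted populations, and the 7TGP-POS sublines still held some eGFP-negative cells. Each subline was grown in low serum (0.5% FBS, harvested on day 3) or in standard serum (10% FBS, harvested on day 6), which gave 8 groups of 2 biological replicates and 16 libraries. Low serum libraries were depleted of ribosomal RNA and standard serum libraries were selected for poly(A) RNA, on different sequencers, so that an effect of serum cannot be told apart from day of harvest, library preparation and run. The 2 conditions were therefore analysed separately, and no test was made between them. Both replicates of a group came from the same subline, so p-values are set against the spread between replicates of a subline. Reporter state cannot be told apart from other differences between the 2 sublines of a line.

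Notch receptors are single-pass membrane proteins that are activated by ligands of the Jagged and Delta-like families on a neighbouring cell. Ligand binding leads to cleavage by ADAM proteases and then by γ-secretase, which releases the Notch intracellular domain. This fragment enters the nucleus, binds the DNA-binding protein RBPJ together with a Mastermind coactivator, and switches on genes such as those of the HES and HEY families of transcriptional repressors. Fringe glycosyltransferases such as LFNG modify the receptors in the Golgi and change which ligands they respond to. In breast cancer, JAG1 and the Notch receptors have been studied for their part in the growth and invasion of TNBC cells.

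Total counts ranged from 27918418 to 46044073 per library. Levels are given as CPM, the usual depth-scaled counts, here on the TMM-adjusted total of the genes tested in that serum condition. Of the mesenchymal markers, VIM had 19591 to 182829 counts per library, while CDH2 had 7 to 44 and SPARC 18 to 63 in MDA-MB-231, against 4620 to 11275 and 31 to 321 in MDA-MB-436. Of the epithelial markers, CDH1 had at most 12 counts and ESRP1 at most 57, but CLDN4 had 1245 to 1868 and EPCAM 223 to 270 in MDA-MB-231, and CLDN3 had 59 to 202 in MDA-MB-436. CD3E, which defines T cells, had at most 2 counts in any library, and the leukocyte gene PTPRC had 56 to 334 in MDA-MB-231 and 3 to 10 in MDA-MB-436. The canonical Wnt targets listed were AXIN2, NKD1, LEF1, TCF7, RNF43, ZNRF3, NOTUM and SP5. Raw counts are given here for AXIN2, SP5 and, in MDA-MB-436, NKD1, in low serum only, where they did not go one way. AXIN2 had 244 and 276 counts in 7TGP-NEG and 408 and 370 in 7TGP-POS libraries of MDA-MB-231, and 67 and 66 against 97 and 70 in MDA-MB-436. SP5 had 137 and 145 against 98 and 86 counts in the first line and 136 and 117 against 82 and 82 in the second, where NKD1 had 105 and 93 against 47 and 37. In standard serum the 2 MDA-MB-436 7TGP-POS libraries differed from each other by GC content. Their log2 ratio (replicate 1 over replicate 2) had r = -0.67 with the GC content of a gene's longest transcript, over 12629 genes. This is a description, since genes do not replicate each other. MDA-MB-231 7TGP-POS cells in low serum came next, with r = 0.36 over 12970 genes. In the remaining groups r lay between -0.19 and -0.03. In standard serum, replicate 2 was the higher one for 8 of the 10 Notch genes in MDA-MB-436 7TGP-POS cells. The same count held in MDA-MB-436 7TGP-NEG cells in standard serum, where r was -0.15. Their GC content ranged from 45.0% for HEY1 to 64.1% for JAG2, against a median of 47.8% over those genes, and the part of GC content in the results below was not tested.

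**Figure D1:**
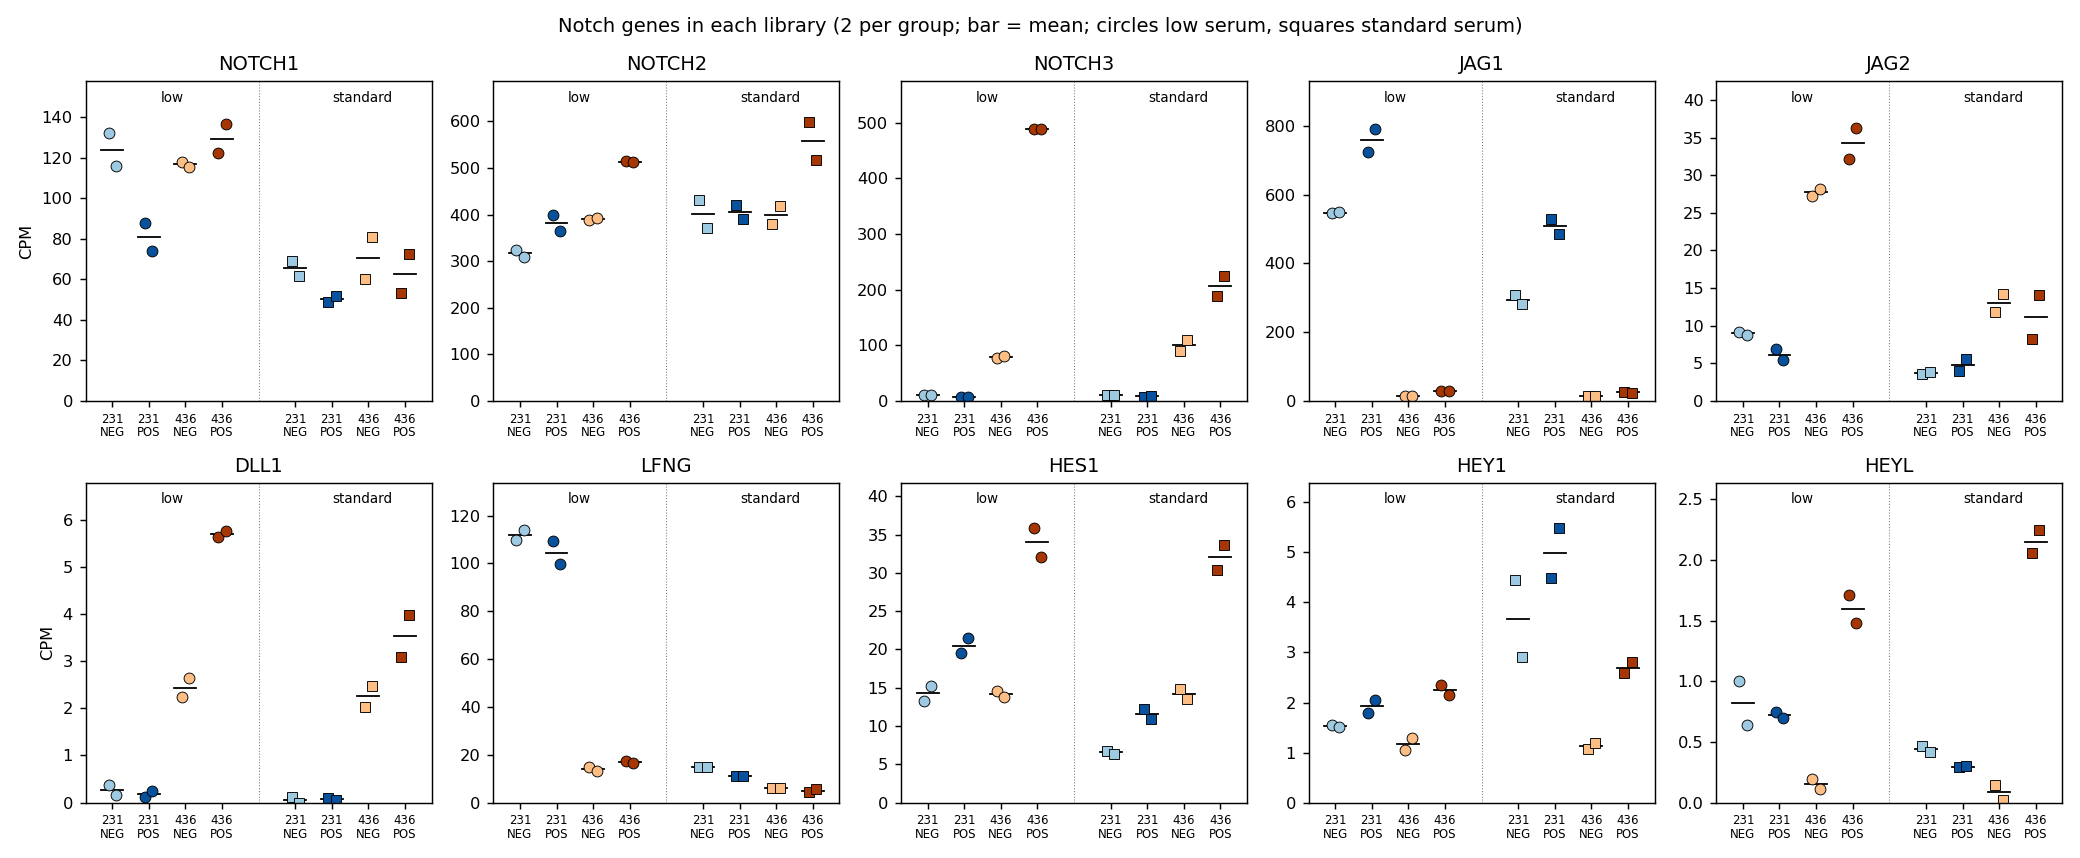
CPM of each Notch gene in each of the 16 libraries; every panel has its own linear axis from 0, points are libraries (circles low serum, squares standard serum, 2 per group) and bars are group means. NOTCH3 stood at 489 CPM in both MDA-MB-436 7TGP-POS low serum libraries and at 80.4 CPM or less in the other low serum libraries, whereas JAG1 was highest in MDA-MB-231.

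The first question was whether the Notch genes differ between Wnt reporter-positive and reporter-negative cells of the same line. In MDA-MB-436 they were higher in 7TGP-POS cells almost throughout. In low serum, 9 of the 10 passed as higher and none as lower, against 26.6% of all 16069 genes tested that passed as higher and 25.3% as lower. In standard serum, 7 of the 10 passed as higher and none as lower, against 26.1% and 23.4% of 15414 genes. The median log2 fold change of the 10 genes was 0.98 in low and 0.78 in standard serum, while that of all genes tested was 0.01 and 0.00. Of the 10 genes, 5 in low serum (NOTCH3, JAG1, DLL1, HES1 and HEYL) and 4 in standard serum (NOTCH3, HES1, HEY1 and HEYL) were higher with a log2 fold change of at least 1, against 6.52% and 6.47% of all genes. Because the 10 genes were chosen with earlier results known, these counts describe them and do not test the pathway as a whole.

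MDA-MB-231 gave no such picture. In low serum, 3 of the 10 genes passed as higher (NOTCH2, JAG1 and HES1) and 3 as lower (NOTCH1, NOTCH3 and JAG2), against 19% of all genes as higher and 19.9% as lower. In standard serum, 2 passed as higher (JAG1 and HES1) and 1 as lower (LFNG), against 16.8% and 16.2%. None was called with a log2 fold change of 1 or more in either direction, against 5.9% of all genes in low and 7.69% in standard serum, and the median over the 10 genes was -0.14 in low and 0.12 in standard serum. JAG1 and HES1 were the genes that passed as higher in both lines and both serum conditions.

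**Figure D2:**
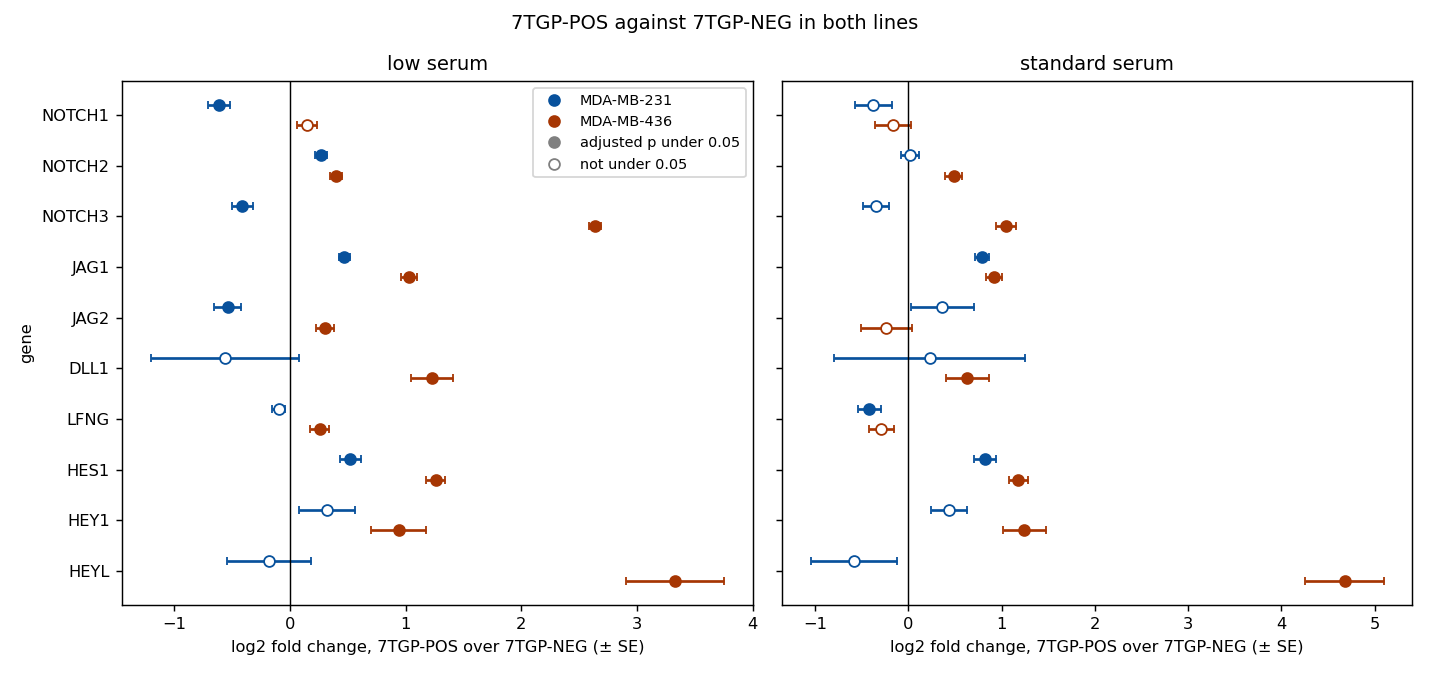
Log2 fold change of 7TGP-POS over 7TGP-NEG cells with its standard error for the 10 Notch genes, in low serum (left) and standard serum (right); blue is MDA-MB-231, brown is MDA-MB-436, and filled points have an adjusted p under 0.05. The MDA-MB-436 points lie to the right of the MDA-MB-231 points for all 10 genes in low serum and for 9 of 10 in standard serum.

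Among the receptors, NOTCH3 changed most in MDA-MB-436. NOTCH3 (ENSG00000074181, GRCh37 chr19:15269849-15311806, minus strand) encodes a receptor best known for its part in smooth muscle and pericytes of arteries. Its level was 76.8 and 80.4 CPM in 7TGP-NEG and 489 and 489 CPM in 7TGP-POS libraries in low serum, with no overlap between the groups and replicates that lay close together. This was a log2 fold change of 2.64 ± 0.05 (SE, n = 2 per group), a 6.22-fold higher level, with an edgeR adjusted p of 4.58e-34. In bulk samples, a change in the number of expressing cells and a change in RNA per cell cannot be told apart. In standard serum the level was 89.9 and 109.8 CPM in 7TGP-NEG and 188 and 224 CPM in 7TGP-POS libraries, again without overlap. The log2 fold change was 1.04 ± 0.11 (adjusted p = 5.81e-06), a 2.06-fold higher level. The 50 nearest expressed genes on the chromosome had a median log2 fold change of -0.23 in low and -0.43 in standard serum, so NOTCH3 rose where its neighbours on balance did not.

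In MDA-MB-231, NOTCH3 was a minor receptor. Its level fell from 9.81 and 10.5 CPM in 7TGP-NEG to 7.53 and 7.74 CPM in 7TGP-POS libraries in low serum, by -0.41 ± 0.09 (adjusted p = 0.00027). In standard serum it was 10.5 and 10.02 CPM against 7.46 and 8.62 CPM, and this difference of -0.35 ± 0.14 did not pass (adjusted p = 0.0779). The groups did not overlap in either condition. The standard serum difference passed with DESeq2 (adjusted p = 0.0415) and without replicate 1 or replicate 2 of MDA-MB-436 7TGP-NEG (adjusted p = 0.0434 and 0.0429), which enter the fit through the shared spread.

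NOTCH1 (ENSG00000148400, GRCh37 chr9:139388885-139440500, minus strand), the receptor with well-known activating mutations in T cell leukaemia, was lower in 7TGP-POS cells of MDA-MB-231 in low serum. Its level was 132 and 116 CPM in 7TGP-NEG and 87.8 and 73.8 CPM in 7TGP-POS libraries, without overlap. The log2 fold change was -0.62 ± 0.09 (adjusted p = 0.000459). The 50 nearest expressed genes had a median of -0.46, which leaves -0.16 between NOTCH1 and that median. In standard serum the levels were 69.0 and 61.8 CPM against 48.8 and 51.7 CPM, with a log2 fold change of -0.38 ± 0.20 (adjusted p = 0.22) beside a neighbourhood median of -0.40. The difference passed with DESeq2 (-0.39, adjusted p = 0.0302) and with MDA-MB-231 fitted alone (-0.36, adjusted p = 0.000437). In both conditions NOTCH1 in MDA-MB-231 thus lay near the genes around it on chromosome 9.

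In MDA-MB-436, NOTCH1 did not pass. Its low serum levels were 118 and 115 CPM in 7TGP-NEG and 122 and 136 CPM in 7TGP-POS libraries, which do not overlap (log2 fold change 0.15 ± 0.09, adjusted p = 0.21), and the difference passed when MDA-MB-436 was fitted alone (adjusted p = 0.0181) and without a filter on low counts (adjusted p = 0.0165). In standard serum they were 60.0 and 80.8 CPM against 53.3 and 72.3 CPM, which do overlap (-0.17 ± 0.20, adjusted p = 0.531).

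NOTCH2 (ENSG00000134250, GRCh37 chr1:120454176-120643366, minus strand), a receptor needed for marginal zone B cells and liver bile ducts, was the most abundant receptor by TPM in all groups but 1. Its sequence is shared in part with the NOTCH2NL copies on chromosome 1, so its counts are uncertain to the extent that reads were placed on either. In MDA-MB-436 it rose from 389 and 393 CPM to 516 and 512 CPM in low serum (0.40 ± 0.05, adjusted p = 9.71e-09) and from 379 and 419 CPM to 598 and 518 CPM in standard serum (0.48 ± 0.09, adjusted p = 0.000373). Replicates of each group lay apart from those of the other in both conditions. In MDA-MB-231 it rose from 325 and 308 CPM to 399 and 364 CPM in low serum (0.27 ± 0.05, adjusted p = 2.72e-05), while in standard serum 430 and 370 CPM overlapped with 419 and 390 CPM (0.02 ± 0.09, adjusted p = 0.945).

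TPM values, which correct for gene length, gave the make-up of the receptor pool, here NOTCH1, NOTCH2, NOTCH3 and the endothelial receptor NOTCH4. The summed receptor TPM in MDA-MB-436 was 127 ± 8.24 (SD, n = 2) in 7TGP-NEG and 241 ± 23.3 in 7TGP-POS cells in low serum. NOTCH3 made up 20.3% ± 0.55 of that sum in 7TGP-NEG and 56.0% ± 0.47 in 7TGP-POS cells, where it stood above NOTCH2 at 30.8% ± 0.44. In standard serum the sum was 158 ± 20.8 and 252 ± 5.40, and the NOTCH3 share was 26.8% ± 0.75 and 37.1% ± 4.08, below that of NOTCH2 in both. In MDA-MB-231 the sums were 71.0 ± 3.26 and 62.3 ± 11.2 in low serum and, with standard serum, 106 ± 11.7 and 107 ± 2.16. NOTCH3 held 2.67% to 3.69% of them on average, and NOTCH2 57.8% to 77.0%. Shares were not tested.

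**Figure D3:**
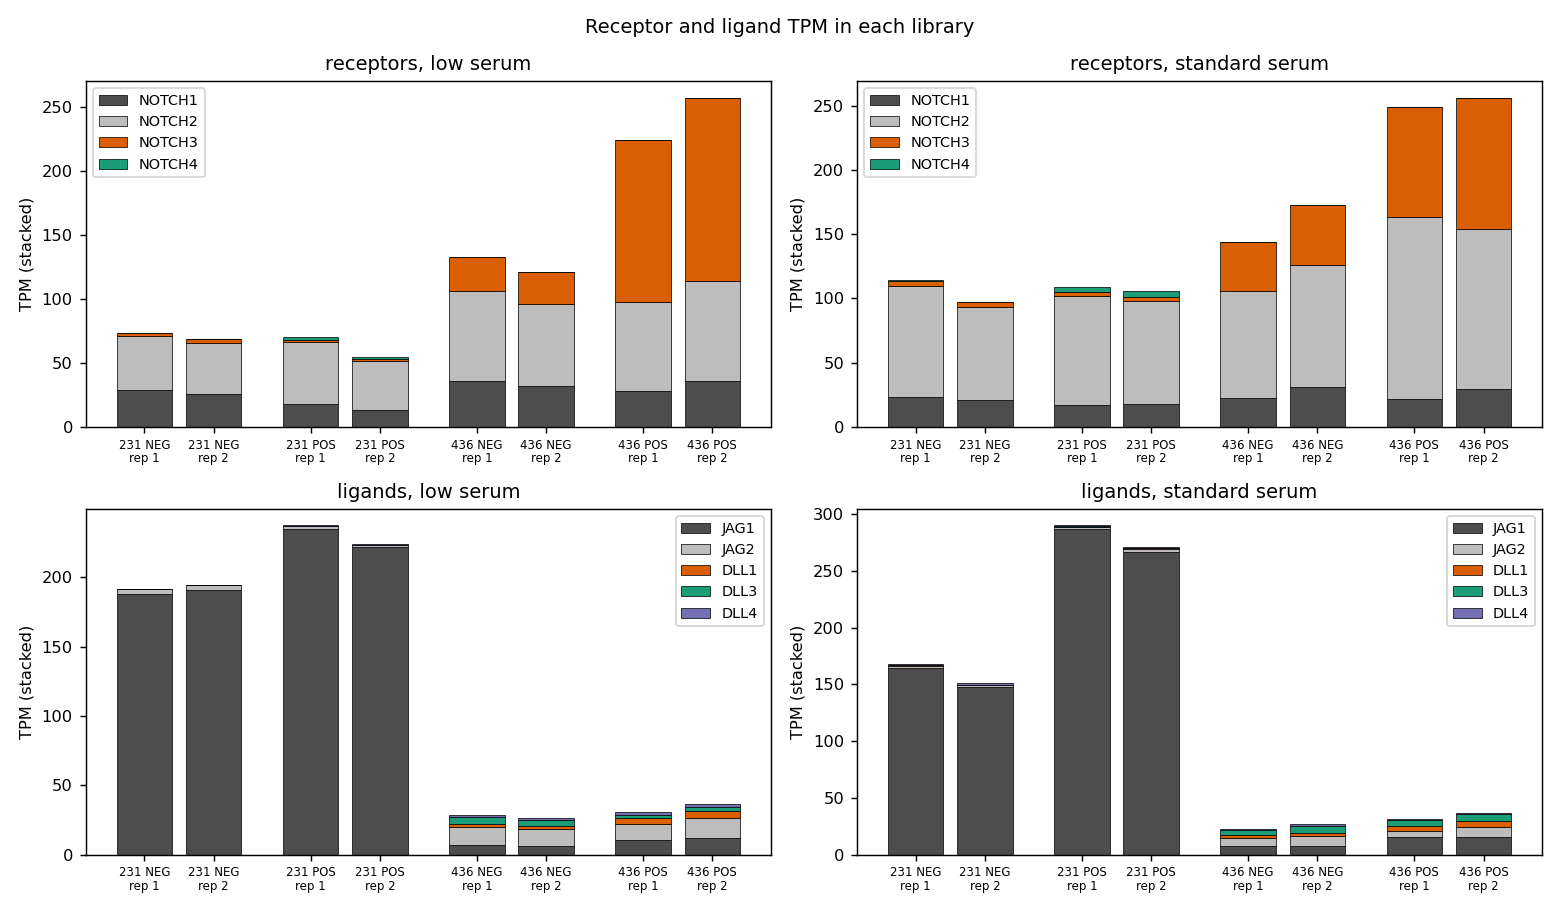
TPM of Notch receptors (top) and ligands (bottom) stacked in each library, for low serum (left) and standard serum (right), on linear axes from 0. The receptor stack is tallest in MDA-MB-436 7TGP-POS libraries, where NOTCH3 contributes 85.2 to 143 TPM, and the ligand stack is tallest in MDA-MB-231, where nearly all of it is JAG1.

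The summed ligand TPM was higher in MDA-MB-231, the opposite order of the lines to that of the receptor sum. JAG1 (ENSG00000101384, GRCh37 chr20:10618332-10654647, minus strand), a ligand whose loss causes Alagille syndrome, was nearly the whole ligand TPM in MDA-MB-231, with a mean share between 97.8% and 98.9% in its 4 groups. In low serum its level in that line was 547 and 548 CPM in 7TGP-NEG and 725 and 792 CPM in 7TGP-POS libraries (log2 fold change 0.47 ± 0.05, adjusted p = 1.85e-10). The standard serum levels were 308 and 281 CPM against 529 and 487 CPM (0.79 ± 0.07, adjusted p = 1.67e-07). The groups did not overlap in either condition, and 7TGP-POS libraries were the higher ones in both.

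In MDA-MB-436, JAG1 stood much lower, yet it also rose in 7TGP-POS cells. Its level was 14.0 and 14.8 CPM against 29.7 and 29.03 CPM in low serum (1.03 ± 0.07, adjusted p = 3.61e-16) and 13.0 and 13.1 CPM against 25.1 and 24.2 CPM in standard serum (0.92 ± 0.08, adjusted p = 7.10e-08). These are 2.04-fold and 1.89-fold higher levels, with replicates that differed far less than the groups.

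JAG2 (ENSG00000184916, GRCh37 chr14:105607319-105635161, minus strand), the other Jagged ligand, had low levels in MDA-MB-231. In low serum it fell in that line from 9.18 and 8.78 CPM to 6.86 and 5.45 CPM (-0.54 ± 0.12, adjusted p = 0.000286), whereas in standard serum 3.57 and 3.86 CPM stood against 3.94 and 5.58 CPM (0.36 ± 0.34, adjusted p = 0.484). In MDA-MB-436 it rose in low serum from 27.2 and 28.2 CPM to 32.2 and 36.3 CPM (0.31 ± 0.08, adjusted p = 0.00118). That call was lost without replicate 2 of 7TGP-POS (0.18, adjusted p = 0.122). In standard serum its MDA-MB-436 levels were 11.8 and 14.2 CPM in 7TGP-NEG and 8.24 and 14.0 CPM in 7TGP-POS libraries, which overlap (-0.24 ± 0.27, adjusted p = 0.518). Here the 7TGP-POS replicates, which stood apart by GC content, decided the value: without replicate 2 it was -0.67 (adjusted p = 0.00805), and without replicate 1 it was 0.09 (adjusted p = 0.712).

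DLL1 (ENSG00000198719, GRCh37 chr6:170591294-170615653, minus strand), a Delta-like ligand, was close to the limit of detection in MDA-MB-231, with 10, 4, 3 and 6 counts in the low serum libraries and 4, 0, 3 and 2 in the standard serum libraries. No direction can be read there. In MDA-MB-436 its level was 2.24 and 2.64 CPM in 7TGP-NEG and 5.63 and 5.77 CPM in 7TGP-POS libraries in low serum (1.23 ± 0.18, adjusted p = 1.93e-07), a 2.34-fold higher level without overlap. Its 50 nearest genes had a median of 0.41. In standard serum it was 2.03 and 2.48 CPM against 3.08 and 3.98 CPM (0.63 ± 0.23, adjusted p = 0.0299), beside a neighbourhood median of 0.45. The standard serum call was lost when any of 3 of the 4 MDA-MB-436 libraries was left out (log2 fold change 0.44 to 0.78, lowest adjusted p = 0.0843), and with DESeq2 (adjusted p = 0.228). DLL1 overlaps FAM120B on the opposite strand, which had 551 to 1316 counts per library and did not pass between the sublines of MDA-MB-436 (0.15 ± 0.07 in low and -0.07 ± 0.09 in standard serum).

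The ligand pool of MDA-MB-436 was small and mixed. Its summed TPM over JAG1, JAG2, DLL1, DLL3 and DLL4 was 27.4 ± 1.44 in 7TGP-NEG and 33.4 ± 3.99 in 7TGP-POS cells in low serum and, with standard serum, 24.6 ± 2.96 and 34.2 ± 3.90. JAG1 made up 24.0% ± 0.46 and 34.0% ± 1.62 of it in low serum and, with standard serum, 31.7% ± 3.13 and 46.2% ± 6.11. JAG2 made up 45.5% ± 0.27 and 38.9% ± 2.06 in low serum and, with standard serum, 31.0% ± 0.85 and 20.1% ± 5.34. In MDA-MB-231 the sum was 193 ± 2.00 and 231 ± 9.76 in low serum and, with standard serum, 159.7 ± 11.5 and 280.5 ± 13.7.

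LFNG (ENSG00000106003, GRCh37 chr7:2552163-2568811, plus strand), which adds a sugar to the EGF repeats of Notch receptors, showed small differences between sublines. In MDA-MB-231 its levels were 109.6 and 114 CPM in 7TGP-NEG and 109.2 and 99.6 CPM in 7TGP-POS libraries in low serum (-0.10 ± 0.06, adjusted p = 0.191), and without replicate 1 of 7TGP-POS the difference passed (-0.17, adjusted p = 0.0343). In standard serum it fell from 15.0 and 15.1 CPM to 11.3 and 11.2 CPM (-0.42 ± 0.12, adjusted p = 0.0145). The replicates lay close together, but with fewer libraries in the fit the call was lost whichever MDA-MB-231 library was left out (-0.41 to -0.42, adjusted p = 0.059 to 0.0785), and with DESeq2 (adjusted p = 0.0519). In MDA-MB-436 it was 14.8 and 13.3 CPM against 17.3 and 16.4 CPM in low serum (0.26 ± 0.08, adjusted p = 0.00757), beside a neighbourhood median of 0.34. This call was lost without replicate 2 of 7TGP-NEG (0.18, adjusted p = 0.14) and without replicate 1 of 7TGP-POS (0.17, adjusted p = 0.164). In standard serum its levels were 6.01 and 6.23 CPM against 4.36 and 5.71 CPM (-0.29 ± 0.14, adjusted p = 0.0891), a difference that was -0.49 without replicate 2 of 7TGP-POS (adjusted p = 0.00613).

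HES1, HEY1 and HEYL are repressors that are switched on by the RBPJ complex in many tissues. To show the letters in question, the 250 bases before the gene start are given for HES1 and HEYL from RefSeq (GRCh38.p14), with the letters TGGGAA, the core of the RBPJ site, in capitals on either strand (TTCCCA on the opposite one). The HES1 stretch is chr3:194135898-194136147 on the plus strand, and the HEYL stretch is chr1:39639644-39639893 on the minus strand, each written 5′ to 3′ in the direction of the gene.
HES1: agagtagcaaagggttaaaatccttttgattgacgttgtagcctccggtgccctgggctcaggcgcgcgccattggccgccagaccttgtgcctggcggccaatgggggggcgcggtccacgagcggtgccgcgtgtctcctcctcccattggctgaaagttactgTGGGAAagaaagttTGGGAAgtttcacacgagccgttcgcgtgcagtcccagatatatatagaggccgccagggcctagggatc
HEYL: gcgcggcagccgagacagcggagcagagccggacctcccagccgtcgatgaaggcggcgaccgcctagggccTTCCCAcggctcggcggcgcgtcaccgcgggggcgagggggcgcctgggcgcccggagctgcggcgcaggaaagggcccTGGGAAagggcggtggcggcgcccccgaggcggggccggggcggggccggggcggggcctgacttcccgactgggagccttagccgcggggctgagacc

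HES1 held the letters at 84 to 79 and at 70 to 65 bases before the start, both on the plus strand of the gene. HEYL held them at 178 to 173 bases on the opposite strand and at 99 to 94 bases on its own. NOTCH1, NOTCH2, NOTCH3, JAG1, JAG2 and LFNG held none in the same window, while 20.8% of 35116 promoters of that length held at least 1. The letters ATCAAAG, on either strand, which are a core of the Tcf/Lef site, were in none of these 8 promoters and in 2.26% of all promoters. A match describes the letters and is not a measured site. DLL1 and HEY1 were not in the promoter table.

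HES1 (ENSG00000114315, GRCh37 chr3:193853937-193856521, plus strand), a Hairy-like repressor with 2 matches to the RBPJ letters, rose in 7TGP-POS cells of both lines. Its MDA-MB-436 levels were 14.5 and 13.9 CPM in 7TGP-NEG and 35.8 and 32.1 CPM in 7TGP-POS libraries with low serum (1.26 ± 0.08, adjusted p = 2.46e-16), and 14.8 and 13.5 CPM against 30.4 and 33.7 CPM in standard serum (1.18 ± 0.10, adjusted p = 3.17e-08). These were 2.39-fold and 2.26-fold higher levels. In MDA-MB-231 they were 13.3 and 15.3 CPM against 19.5 and 21.5 CPM in low serum (0.52 ± 0.09, adjusted p = 8.96e-06), and 6.73 and 6.38 CPM against 12.3 and 10.9 CPM in standard serum (0.82 ± 0.12, adjusted p = 2.23e-05). The groups did not overlap in any of the 4 comparisons. The neighbourhood medians were 0.19 or less.

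HEYL (ENSG00000163909, GRCh37 chr1:40089107-40105315, minus strand), a repressor that Notch signalling switches on in vascular smooth muscle, went from a few reads to a clear level in MDA-MB-436. In low serum it had 6 and 3 counts in 7TGP-NEG and 51 and 40 counts in 7TGP-POS libraries, which is 0.19 and 0.11 CPM against 1.71 and 1.48 CPM (3.33 ± 0.42, adjusted p = 1.07e-08). In standard serum it had 5 and 1 counts against 100 and 88 counts, which is 0.15 and 0.025 CPM against 2.06 and 2.24 CPM (4.68 ± 0.42, adjusted p = 5.40e-08). With so few reads in 7TGP-NEG libraries, the size of these differences is uncertain, although the groups lay far apart in both conditions. MDA-MB-231 had 27, 17, 20 and 17 counts in low serum and 15, 12, 9 and 10 counts in standard serum, with 7TGP-NEG given first, and the difference did not pass (adjusted p = 0.741 and 0.373).

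HEY1 (ENSG00000164683, on chromosome 8) is the related repressor of the endothelium and the heart. In MDA-MB-436 its level was 1.06 and 1.30 CPM in 7TGP-NEG and 2.34 and 2.15 CPM in 7TGP-POS libraries in low serum (0.94 ± 0.24, adjusted p = 0.00099), and 1.07 and 1.19 CPM against 2.59 and 2.80 CPM in standard serum (1.24 ± 0.23, adjusted p = 0.00023). The groups did not overlap. In MDA-MB-231 it was 1.55 and 1.51 CPM against 1.80 and 2.05 CPM in low serum (0.32 ± 0.24, adjusted p = 0.322). The standard serum values were 4.45 and 2.91 CPM against 4.50 and 5.49 CPM (0.43 ± 0.20, adjusted p = 0.101), and without replicate 1 of 7TGP-NEG the difference was 0.78 (adjusted p = 0.018).

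On the authors' TPM values, the smaller low serum differences weakened. With log2(TPM + 1) and limma, the increases of NOTCH2, JAG1 and HES1 in MDA-MB-231 no longer passed (0.07, 0.27 and 0.30, adjusted p = 0.749, 0.0675 and 0.0613), nor did those of NOTCH2, JAG2 and LFNG in MDA-MB-436 (0.15, 0.05 and 0.01, adjusted p = 0.332, 0.802 and 0.949). On that scale the median of all genes was -0.13 in MDA-MB-231 and -0.15 in MDA-MB-436, against -0.01 and 0.01 on the TMM scale. NOTCH3, JAG1, DLL1, HES1, HEY1 and HEYL in MDA-MB-436 passed on both scales in low serum.

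Next, the difference between 7TGP-POS and 7TGP-NEG cells was compared between the lines with an interaction term. In low serum, 8 of the 10 genes passed with a lower log2 fold change in MDA-MB-231 than in MDA-MB-436, and none with a higher one. Of all genes tested, 24.6% passed as lower and 21.1% as higher. In standard serum, 4 of the 10 passed as lower and none as higher, against 22.4% and 18.8%. The largest differences were those of HEYL, at -3.51 ± 0.59 in low serum (adjusted p = 3.26e-06) and -5.27 ± 0.68 in standard serum (adjusted p = 6.07e-06), and of NOTCH3, at -3.05 ± 0.10 (adjusted p = 1.43e-25) and -1.39 ± 0.18 (adjusted p = 4.65e-05). In low serum NOTCH1, JAG1, JAG2, DLL1, LFNG and HES1 also passed, with differences of -0.76, -0.56, -0.84, -1.79, -0.36 and -0.74 in that order. NOTCH2 (-0.13, adjusted p = 0.154) and HEY1 (-0.62, adjusted p = 0.144) did not, though NOTCH2 passed without replicate 1 of MDA-MB-231 7TGP-POS (-0.19, adjusted p = 0.0153).

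The remaining calls in standard serum were NOTCH2, with a difference of -0.47 ± 0.13 (adjusted p = 0.00849), and HEY1, with -0.81 ± 0.31 (adjusted p = 0.0423). HEY1 lost its call with DESeq2 (adjusted p = 0.145), library totals (0.062), a 1 CPM filter (0.0517) and both TPM scales (0.11 and 0.0613), and without any 1 of 6 of the 8 libraries (-0.46 to -0.89). NOTCH2 lost its call without any 1 of 3 libraries (-0.36 to -0.42, adjusted p = 0.0504 to 0.0569). Without replicate 1 of 7TGP-NEG of either line, the number that passed in standard serum was 2. The JAG1 difference in standard serum was -0.13 ± 0.11 and did not pass (adjusted p = 0.381). That of HES1 was -0.36 ± 0.15 (adjusted p = 0.0759), and it passed with limma on log2(TPM + 1) (-0.44, adjusted p = 0.0183) and log2(TPM + 0.1) (-0.42, adjusted p = 0.0276). Without replicate 1 of MDA-MB-436 7TGP-POS the edgeR value was -0.42. The JAG2 difference of 0.60 ± 0.43 (adjusted p = 0.334) passed without replicate 2 of the same group (1.03, adjusted p = 0.00631), the only gene of the 10 for which MDA-MB-231 had the higher log2 fold change in standard serum. The DLL1 difference in low serum was lost without replicate 1 of MDA-MB-231 7TGP-NEG (-1.01, adjusted p = 0.43) or 7TGP-POS (-1.32, adjusted p = 0.152), and the LFNG difference without replicate 2 of MDA-MB-436 7TGP-NEG (-0.28, adjusted p = 0.0512) or replicate 1 of 7TGP-POS (-0.26, adjusted p = 0.0661).

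The lines themselves were then compared in their 7TGP-NEG cells, where 7 of the 10 genes passed in low and 8 in standard serum, against 79.2% and 78.8% of all genes. The lines were grown in different media according to the study's methods, so that line and medium cannot be told apart. JAG1 was 38.1-fold higher in MDA-MB-231 in low serum (log2 difference 5.25 ± 0.06, adjusted p = 9.85e-43) and 22.6-fold higher in standard serum (4.50 ± 0.09, adjusted p = 2.50e-18). LFNG was 7.92-fold higher there in low serum (2.99 ± 0.07, adjusted p = 5.26e-33) and 2.46-fold higher in standard serum (1.30 ± 0.13, adjusted p = 3.40e-08). HEYL was also higher in MDA-MB-231 in both conditions, by 2.38 ± 0.50 and 2.42 ± 0.59 on the log2 scale, from few reads.

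NOTCH3 was 7.73-fold lower in MDA-MB-231 7TGP-NEG than in MDA-MB-436 7TGP-NEG cells in low serum (-2.95 ± 0.07, adjusted p = 1.71e-33) and 9.73-fold lower in standard serum (-3.28 ± 0.13, adjusted p = 5.87e-11). JAG2 was lower there too, with log2 differences of -1.62 ± 0.09 and -1.81 ± 0.31. DLL1 was lower in both conditions, at -3.19 ± 0.34 and -5.03 ± 0.49, with the MDA-MB-231 libraries at 10 counts or fewer. NOTCH1 did not pass in either condition (0.09 ± 0.09 and -0.11 ± 0.20), though on log2(TPM + 0.1) it was lower in MDA-MB-231 in low serum (-0.32, adjusted p = 0.0341), where the median of all genes was -0.33. HES1 did not pass in low serum (0.01 ± 0.09, adjusted p = 0.942) and was lower in MDA-MB-231 in standard serum (-1.11 ± 0.11, adjusted p = 5.14e-08), and HEY1 went from 0.39 ± 0.26 (adjusted p = 0.171) in low serum to 1.70 ± 0.23 (adjusted p = 2.24e-06) in standard serum. On log2(TPM + 1) HES1 was lower in MDA-MB-231 in low serum as well (-0.37, adjusted p = 0.00738), where the median of all genes was -0.19.

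When the 4 groups of a serum condition were put in order of level, NOTCH3 stood highest in MDA-MB-436 7TGP-POS cells, followed by the 7TGP-NEG cells of that line, then by 7TGP-NEG and last by 7TGP-POS cells of the other line, in both conditions, and all neighbours in low serum and the first 3 groups in standard serum differed from each other. JAG1 stood higher in both MDA-MB-231 sublines than in both of the other line, and within each line higher in 7TGP-POS cells, with every neighbour different in both conditions. HEYL was highest in MDA-MB-436 7TGP-POS and lowest in MDA-MB-436 7TGP-NEG cells in both conditions, with both MDA-MB-231 sublines between them and not different from each other (adjusted p = 0.741 and 0.373). For HES1, MDA-MB-436 7TGP-POS cells were the highest group in both conditions. In low serum the 2 7TGP-NEG sublines were its lowest groups and did not differ, whereas in standard serum both MDA-MB-231 sublines stood below both MDA-MB-436 sublines.

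The serum conditions are given side by side only. LFNG in MDA-MB-231 7TGP-NEG cells had a mean of 112 ± 3.03 CPM (SD, n = 2) in low serum and 15.1 ± 0.029 CPM in standard serum. JAG1 in the same subline had 548 ± 1.19 and 294 ± 18.7 CPM, and NOTCH1 had 124 ± 11.4 and 65.4 ± 5.08 CPM. NOTCH3 in MDA-MB-436 7TGP-POS cells had 489 ± 0.58 and 206 ± 25.5 CPM, while its 7TGP-NEG counterpart had 78.6 ± 2.58 and 99.8 ± 14.1 CPM. Library preparation differed along with serum, so these pairs cannot be read as responses to serum.

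The other genes of the pathway were listed by role, 54 in all, of which 51 could be tested in each condition. In MDA-MB-436, 22 passed as higher and 8 as lower in low serum, against 26.6% and 25.3% of all genes. With standard serum, 15 and 10 passed, against 26.1% and 23.4%. The median log2 fold changes were 0.13 and 0.01. In MDA-MB-231, 7 passed as higher and 13 as lower in low serum, against 19% and 19.9% of all genes. With standard serum, 10 and 9 passed, against 16.8% and 16.2%. The medians in that line were -0.02 and -0.11. No single direction held across the list in either line.

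DNER, a neuronal transmembrane protein that can bind Notch, rose in 7TGP-POS cells in all 4 comparisons, by 1.76 ± 0.12 and 2.56 ± 0.20 in MDA-MB-231 and by 1.55 ± 0.07 and 1.76 ± 0.13 in MDA-MB-436 (low and standard serum; highest adjusted p = 1.87e-07). NOTCH4, the receptor of endothelial cells, rose in MDA-MB-231, from 0.59 and 0.61 CPM to 9.37 and 8.36 CPM in low serum (3.88 ± 0.23, adjusted p = 9.74e-18) and from 0.63 and 0.60 CPM to 11.2 and 12.3 CPM in standard serum (4.25 ± 0.25, adjusted p = 6.16e-10). In 7TGP-POS cells of MDA-MB-231 NOTCH4 thus had a mean TPM of 1.74 in low and 4.13 in standard serum, beside 1.65 and 3.13 for NOTCH3. Of the endothelial markers, CDH5 had at most 5 counts in any library and VWF 6 to 63, and their part in the NOTCH4 level was not tested. NOTCH4 had at most 13 counts in any MDA-MB-436 library. DLK2, a non-canonical ligand, fell in MDA-MB-231 in standard serum (-2.29 ± 0.21) and rose in MDA-MB-436 in standard serum (1.03 ± 0.24).

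Of the genes that turn receptors over or limit the signal, NRARP, an ankyrin-repeat protein that is itself a Notch target and acts on the intracellular domain, rose in MDA-MB-436. Its level was 5.80 and 6.31 CPM against 15.6 and 18.0 CPM in low serum (1.47 ± 0.12, adjusted p = 3.28e-14) and 3.08 and 2.83 CPM against 7.67 and 7.59 CPM in standard serum (1.37 ± 0.15, adjusted p = 4.97e-07). DTX1, a Deltex ubiquitin ligase and also a known Notch target, had 1 and 0 counts in 7TGP-NEG and 33 and 24 counts in 7TGP-POS libraries of MDA-MB-436 in low serum. With standard serum it had 0 and 0 against 43 and 61 counts. Measured against a floor of 3 counts per library, it was at least 9.65-fold higher in low and at least 15.2-fold higher in standard serum, and it had at most 3 counts in any MDA-MB-231 library. DTX2 rose in MDA-MB-436 in low serum (1.01 ± 0.08), and DTX4 in MDA-MB-231 in both (1.30 ± 0.24 and 2.39 ± 0.29), from 0.73 CPM or less on average. DTX3 rose in MDA-MB-231 in standard serum (1.57 ± 0.15).

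MAML3, one of the Mastermind coactivators, rose in MDA-MB-436, from 2.98 and 3.12 CPM to 8.04 and 9.36 CPM in low serum (1.51 ± 0.13, adjusted p = 2.57e-13) and from 1.54 and 1.56 CPM to 3.99 and 3.92 CPM in standard serum (1.35 ± 0.14, adjusted p = 4.36e-07). The ubiquitin ligases that act on ligands went both ways in that line in low serum, NEURL1 upwards (2.34 ± 0.25) and NEURL1B downwards (-1.23 ± 0.06). NEURL1 also rose in MDA-MB-231 in standard serum (1.87 ± 0.39). Among the other HES and HEY factors, HES2 fell in MDA-MB-231 in low serum (-1.14 ± 0.13) and HES7 rose there in standard serum (1.68 ± 0.19), while HES5 had at most 3 counts in any library. Receptor cleavage genes, which include the γ-secretase subunits, had 5 of 9 passing as higher and 1 as lower in MDA-MB-436 in low serum and, with standard serum, 2 and 2, all with differences under 1 on the log2 scale, against 26.6% and 25.3% of all genes in low and 26.1% and 23.4% in standard serum.

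**Figure D4:**
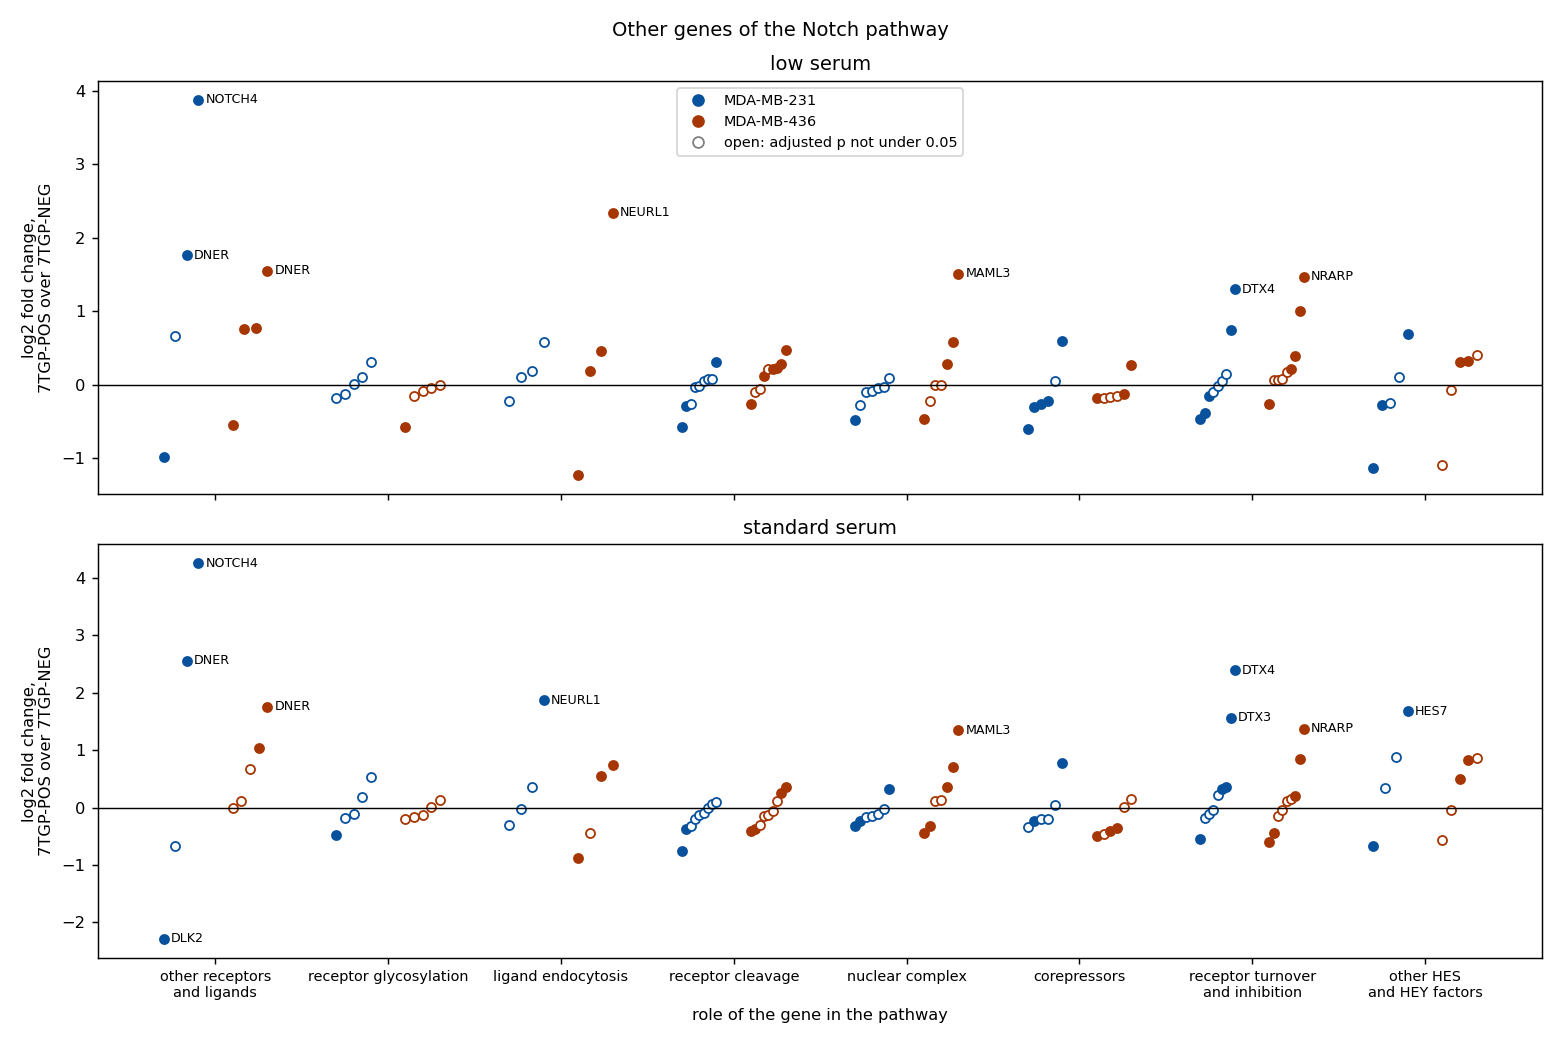
Log2 fold change of 7TGP-POS over 7TGP-NEG cells for the other pathway genes, grouped by role, in low serum (top) and standard serum (bottom); blue is MDA-MB-231, brown is MDA-MB-436, open points have an adjusted p that is not under 0.05, and genes with 3 counts or fewer in each library of a group, such as DTX1 in MDA-MB-436, are left out, so that 48 to 50 genes are shown. Most points lie near 0, and NOTCH4, DNER, NEURL1, NRARP, MAML3 and DTX4 are among those that stand away from it.

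A hand-written 32-gene version of the Hallmark Notch list shared 8 genes with the 10 described here. In MDA-MB-436, 15 of its 31 tested genes passed as higher and 4 as lower in low serum (26.6% and 25.3% of all genes) and, with standard serum, 13 and 5 (26.1% and 23.4%). Without those 8 genes, 8 of 23 passed as higher and 4 as lower in low serum and, with standard serum, 7 and 5, with medians of 0.01 and -0.01. In MDA-MB-231, 7 of the 31 tested genes of the whole list passed as higher and 8 as lower in low serum (19% and 19.9% of all genes). With standard serum, 6 and 6 passed (16.8% and 16.2%). The study had tested this set on the same libraries, so its direction is not independent evidence.

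Finally, the genes whose levels over the libraries were most like those of a Notch gene were sought among 10733 protein-coding genes, with the smaller of 2 Pearson correlations, 1 over the 8 libraries of each serum condition, as the measure. These libraries fall into 4 groups, so the values describe shared differences in level between groups. The order of the group means can still differ, as for NOTCH3 and DLL1 in the MDA-MB-231 sublines in standard serum. There DLL1 had at most 4 counts per library, and the 2 sublines did not differ in it (edgeR adjusted p = 0.921). For NOTCH3 the closest genes were COL14A1, PDGFA and PSMG3 (smaller r of 0.996, 0.992 and 0.991), and for DLL1 they were NOTCH3, SDK1 and COL14A1 (0.993, 0.993 and 0.992). JAG1 was followed by LIPH, F2RL1 and ANO10 (0.997, 0.996 and 0.996), and LFNG by FERMT1, KCNN4 and SLC2A1 (0.990 to 0.989). For HES1 they were EMC8, STYXL1 and PHF14 (0.963, 0.944 and 0.938). NOTCH1 had no gene over 0.876. HEYL was under the level needed for this comparison.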

How the data were processed

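Gene counts and TPM were analysed for 16 bulk RNA-Seq libraries, 2 biological duplicates in each of 8 groups. Per the study's methods, the authors checked strandedness with RSeQC, used Bowtie to align reads to ribosomal RNA sequences, used STAR to align to hg19, and counted reads per gene on Gencode v19; the submitters' processing notes name STAR 2.6.1a, edgeR 3.22.5, limma and hg19. The deposited raw counts are whole numbers per gene, not normalized. The deposited TPM were made by the authors in a way not given in the sources used here. The library kit and the medium differ between the labels and the study's methods; the methods were followed.

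Gene IDs were matched to Gencode v44 lifted to GRCh37 (55538 of 57820 had a symbol, 19404 were protein-coding). The filter kept protein-coding genes whose 8 libraries of one serum condition held 10 or more counts together, 16069 in low and 15414 in standard serum. Each condition was fitted on its own with edgeR 4.0.16 (R 4.3.3): TMM factors, 1 model of 4 groups and robust quasi-likelihood tests, with Benjamini-Hochberg adjustment over all genes tested. "Passed" means an adjusted p under 0.05. Standard errors were derived from the F statistic of each test. The interaction was the log2 fold change in MDA-MB-231 minus that in MDA-MB-436. Levels of different genes were compared by TPM only.

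Named genes were the 10 Notch genes and those of a 54-gene pathway list that passed with a log2 fold change of 1 or more in either direction, at most 3 per role and comparison by adjusted p. The members and lists were chosen with earlier results of these data known. Promoters came from RefSeq (GRCh38.p14). Neighbours were the 50 nearest genes on the chromosome among the genes tested with a mean of at least 1 CPM in that serum condition. The fits were tested on simulated data. DESeq2 1.42.0, limma 3.58.1 on log2(TPM + 1) and log2(TPM + 0.1), other size factors and filters, all biotypes, each line alone, a replicate block and leaving out each library were the alternatives. Chi-square per degree of freedom between replicates was 3.03 to 27.1, so no library was a repeat of another.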

Additional observations from a re-analysis of the deposited data

Results flagged for a closer look

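These results were singled out because the log2 fold change of 7TGP-POS over 7TGP-NEG cells differed between the 2 lines by edgeR's interaction test (adjusted p under 0.05). With the value for MDA-MB-436 subtracted from that for MDA-MB-231, the low serum difference was -0.76 for NOTCH1, -3.05 for NOTCH3, -0.56 for JAG1, -0.84 for JAG2, -1.79 for DLL1, -0.36 for LFNG, -0.74 for HES1 and -3.51 for HEYL. In standard serum it was -0.47 for NOTCH2, -1.39 for NOTCH3, -0.81 for HEY1 and -5.27 for HEYL. NOTCH3 and HEYL were the genes called in both conditions. HEYL had 6 counts or fewer in each MDA-MB-436 7TGP-NEG library and DLL1 had 10 or fewer in each MDA-MB-231 library, so the sizes of those differences are uncertain.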

How the results depend on the processing

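Over 26 alternatives, 16 of which left out 1 library, 1291 of 1400 values for the 10 genes kept their direction and their side of the threshold, 48 lost a call, 21 gained one and 40 changed sign. No value that had passed changed sign, and 4 of the 40 passed in the new direction: between the 7TGP-NEG cells of the lines, HES1 on both TPM scales (adjusted p = 0.00738 and 0.00504) and NOTCH1 on log2(TPM + 0.1) (0.0341) in low serum, and NOTCH2 with library totals (0.0428) in standard serum. On log2(TPM + 1) and on log2(TPM + 0.1), 3 rather than 6 genes passed in MDA-MB-231 in low serum, and with MDA-MB-231 fitted alone 5 rather than 3 passed in standard serum. Leaving out 1 library gave 2 to 4 passing interactions in standard serum, with 2 without replicate 1 of MDA-MB-231 7TGP-NEG or of MDA-MB-436 7TGP-NEG. The causes were not tested. DESeq2 called 16 rather than 20 pathway genes in MDA-MB-231 and 27 rather than 30 in MDA-MB-436 in low serum. With 20 neighbours in place of 50, 9 of 40 neighbourhood medians moved.

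The values that changed sign were as follows. Between the 7TGP-NEG cells of the lines in low serum, HES1 was -0.011 with DESeq2, -0.012 with RLE factors, -0.063 with library totals, -0.0083 with a 1 CPM filter, -0.37 and -0.39 on the TPM scales, and -0.092 to 0.10 with 1 library left out. NOTCH1 was -0.31 and -0.32 on the TPM scales and -0.0100 to 0.18 with 1 library left out, and HEY1 was -0.0066 and -0.011 on the TPM scales. In standard serum NOTCH2 was -0.21 with library totals, -0.0058 without a filter, -0.16 on both TPM scales and -0.11 to 0.11 with 1 library left out, and NOTCH1 was -0.32 to 0.12. Between sublines, NOTCH1 in MDA-MB-436 in low serum was -0.099 and -0.10 on the TPM scales, and NOTCH2 in MDA-MB-231 in standard serum was -0.0059 with all biotypes and -0.088 to 0.13 with 1 library left out. The same omission gave, in MDA-MB-231, -1.19 to 0.21 for DLL1 and -0.46 to 0.17 for HEYL in low serum and -0.66 to 4.57 for DLL1 in standard serum. In MDA-MB-436 in standard serum it gave -0.41 to 0.058 for NOTCH1 and -0.67 to 0.090 for JAG2, and for the standard serum interactions -1.30 to 3.94 for DLL1, -0.44 to 0.021 for NOTCH1 and -0.31 to 0.068 for LFNG. Where 1 library was left out, the lone sample of its group was assumed to vary like the other groups.

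Replicate numbers did not pair the samples in low serum, where deviations of same-numbered libraries correlated at -0.13 to 0.03. In standard serum they correlated at -0.03 to 0.21, and 4 of 6 pairs of groups were over 0.1. The main fit took no account of the replicate number in either condition. With the replicate block, 5569 rather than 5084 genes passed in MDA-MB-231 and 8137 rather than 7631 in MDA-MB-436 in standard serum, and 6055 rather than 6250 and 8153 rather than 8348 in low serum. Among the 10 genes, NOTCH3 in MDA-MB-231 (-0.36, adjusted p = 0.0153) and the JAG2 interaction (0.60, adjusted p = 0.0401) passed in standard serum, the HEY1 interaction did not (-0.81, adjusted p = 0.0541), and NOTCH2 between the 7TGP-NEG lines was -0.0012; no other call of the 10 genes changed. With 2 libraries per group and counts under 10 for DLL1 and HEYL in some libraries, small differences in these genes were not detectable at this depth.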
